A study of Mus musculus with 15 samples.

Results

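Gene expression in the mouse hippocampus 30 min after contextual fear conditioning (FC) was compared with that of untrained controls (CC). The comparison took 10 of the 15 RNA-seq libraries of the series, the 5 of FC and the 5 of CC, and all 18008 genes of 37310 that had more than 10 reads in more than 5 of the 15. All animals were wild-type C57BL/6J males, 2 months old, housed singly and handled beforehand. FC mice were placed in the chamber and received 1 foot shock of 1.5 mA that lasted 2 s and ended 2.5 min after placement, and the hippocampus was dissected 30 min after training. CC mice were handled in the same room, were neither trained nor exposed to the chamber, and were dissected at the same clock time, so exposure to the chamber, the shock and learning cannot be told apart. Each library was made from polyA-selected RNA of both hippocampi of 1 mouse. The libraries of each group are numbered 3, 5, 6, 7 and 8, and counts per gene are given below in that order. The study's methods and its deposited design text give different numbers of animals and days, so n counts libraries. The other 5 libraries, from mice that were conditioned, tested for retrieval 24 h later and dissected 30 min after that test (RT), entered the statistical model only.

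Training in an unfamiliar place drives calcium entry and second messenger signalling in hippocampal neurons, and the kinases that follow phosphorylate factors already bound to DNA, among them CREB and SRF. These switch on immediate early genes without new protein synthesis. Some of these genes encode transcription factors, such as the FOS, EGR and NR4A families, and others encode effectors at the synapse or phosphatases and inhibitors that shut the kinases off again. The hippocampus is needed to bind a place into a fear memory, and transcription in the period after training is needed for the memory to last.

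Counts are given after upper-quartile (UQ) normalization. Each log2 fold change (FC over CC) was fitted by edgeR to the 15 libraries together, beside 5 factors of unwanted variation (RUVs), and is given with its standard error (SE). A gene was called when the Benjamini-Hochberg adjusted p of the likelihood ratio test (FDR) was at most 0.01. The factors were drawn from differences between libraries of the same group, so SE and FDR leave out that part of the spread. Totals ran from 39992029 to 62555543 reads per library. Markers of the labelled tissue were present in all 10 libraries, and none of the markers tested for pyramidal cells, dentate granule cells or interneurons had a count of 0 in any of them. The summed count of 12 neuronal markers was 704442 to 798167 in CC and 709160 to 757628 in FC. FC3 stood apart from the other 9 libraries. Among genes with a mean count of at least 50, its median log2 deviation from the gene means was -0.518 in the length quartile with the longest exonic sequence (the others -0.00104 to 0.0929) and 0.668 in the shortest (the others -0.112 to 0.0191). A gene in FC3 can therefore lie far from the other FC libraries in either direction, and where a gene named below was not called without it, this is said beside its values.

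After conditioning 237 genes (1.32% of those tested) were higher and 166 (0.922%) were lower. Most changes were small. Among the genes called higher 35 changed by more than 1 on the log2 scale and 147 by less than 0.5, with a median of 0.38. Among the genes called lower 5 changed by more than 1 and 134 by less than 0.5, and the median size was 0.25. Of the called genes 224 of the higher and 130 of the lower are protein coding. In the counts themselves the 5 FC libraries were all above the 5 CC libraries for 93 genes (0.516% of all tested) and all below for 62 (0.344%). These included 66 of the 237 and 22 of the 166. With UQ alone in the model 32 genes were higher (0.178%) and 2 lower, and all 34 were among those called with RUVs. The quasi-likelihood test of edgeR with RUVs called 82 higher (0.455%) and 16 lower. The number of genes called depended on single libraries, most of all for the lower genes: it was 147 higher and 94 lower without FC5, 214 and 80 without FC3, 185 and 104 without CC6, 204 and 108 without CC5, and 300 and 324 without CC8. A set of 75 genes was called in the likelihood ratio test, in the quasi-likelihood test, in DESeq2 and in each of the 10 models that left out 1 library. Of these 70 were higher and 5 lower. It held 14 choroid plexus genes and 23 early transcription factors, activity-induced effectors or feedback regulators of ERK. These models did not leave out FC5 and FC8 together. Without both, a setting chosen after the data were seen, 101 genes were higher and 91 lower. Of the set, Kcnj13, Cldn2, Aqp1, Otx2, Prlr and Abca4 were then not called, and Ttr, Mfrp, Slc4a5 and Folr1 were.

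**Figure D1:**
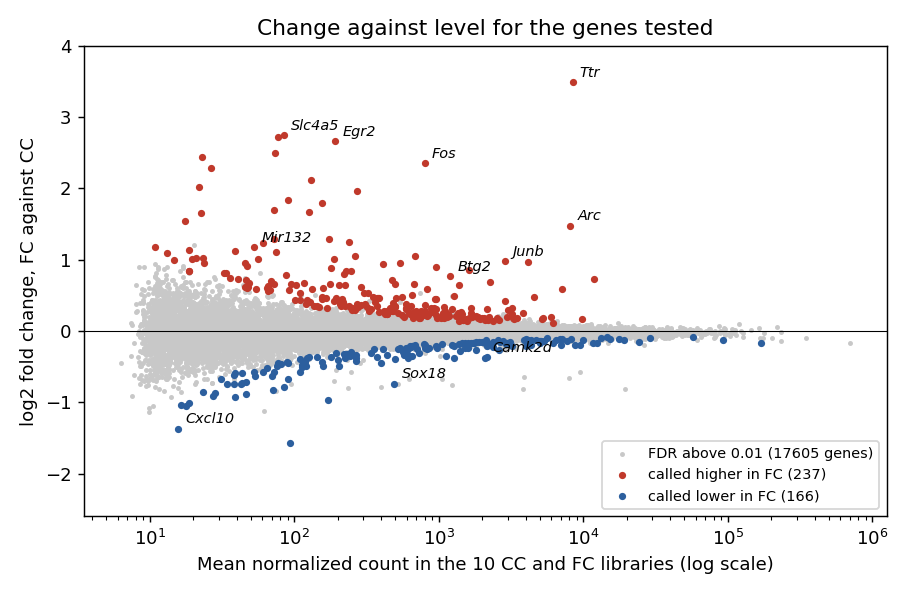
Log2 fold change between FC and CC (vertical axis) against the mean UQ-normalized count of the 10 libraries (horizontal axis, log scale) for the 18008 genes tested. Called genes are coloured, 237 higher and 166 lower. Ttr, Egr2, Fos and Arc lie at the upper edge, and 134 of the lower genes lie within 0.5 of 0.

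Of 31 immediate early transcription factors tested, 14 were higher in FC, none was lower and 17 were not called (background 1.32% higher), and their median log2 fold change was 0.18 against -0.014 over all genes tested. With UQ alone 8 were called and with the quasi-likelihood test 9. The list was written with values of these libraries known, so it is no independent evidence of the direction. For the lists below, the background is the share of all genes tested that was called higher and lower.

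Fos, the founding member of the AP-1 family, lies on chromosome 12 (mm9, 86814840 to 86818223). It had 357, 242, 248, 260 and 219 counts in CC and 1299, 1698, 1148, 1225 and 1320 in FC, which is a 5.12-fold rise (log2 fold change 2.36, SE 0.12, edgeR FDR 6.19e-79). The groups lay far apart, and FC3 was the median of the FC libraries.

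Egr2, a zinc-finger factor on chromosome 10, had the largest fold change of the list. Its counts were 95, 55, 41, 58 and 32 in CC and 296, 450, 277, 342 and 281 in FC (6.34-fold, log2 fold change 2.66, SE 0.17, edgeR FDR 5.86e-49). CC3 was the highest control in both genes, and the groups did not overlap in either.

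Other members of the FOS and JUN families changed by different amounts. Junb went from 2162, 1599, 2065, 1625 and 1942 counts in CC to 4990, 3950, 3247, 4031 and 3342 in FC (log2 fold change 0.98, SE 0.09, edgeR FDR 1.18e-26). Fosb went from 377 ± 42.7 to 703 ± 70.3 (SD, n = 5 libraries; 0.95, SE 0.09, edgeR FDR 2.68e-24). Both rose about as much and had no overlap between groups. Jun, in contrast, had 5429 to 7584 counts in CC and 5802 to 6583 in FC, a log2 fold change of 0.12 that passed the threshold (edgeR FDR 0.0041) although the groups overlapped, with CC8 the highest of all 10 libraries.

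Nr4a1, an orphan nuclear receptor, rose from 3417, 2505, 3000, 2304 and 2377 counts to 6869, 5980, 4500, 5374 and 4944 (log2 fold change 0.96, SE 0.10, edgeR FDR 1.99e-19). Its relative Nr4a3 changed less, by 0.19 (SE 0.05, edgeR FDR 0.00679). Its CC range was 4533 to 5539 counts, 4 FC libraries had 5559 to 5893 and FC3 had 4319, so the groups separated when FC3 was set aside. Without FC3 in the model it was not called (0.16, edgeR FDR 0.0359).

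Within the EGR family, Egr4 rose by 0.85 (SE 0.09, edgeR FDR 1.10e-16), from 1069 ± 130 to 2157 ± 656 counts. Egr1, the member most often used to map active neurons, changed less. It had 7924, 5392, 5818, 5216 and 4757 counts in CC and 7410, 10199, 7909, 8912 and 7969 in FC (log2 fold change 0.59, SE 0.11, edgeR FDR 1.40e-05), and CC3 lay among the FC libraries. With UQ alone Egr1 was not called (0.54, edgeR FDR 0.143).

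Ier2 and Klf2 rose by 0.94 (SE 0.08, edgeR FDR 1.62e-26) and 0.72 (SE 0.09, edgeR FDR 8.60e-13). Ier2 had 205 to 300 counts in CC and 412 to 481 in 4 FC libraries, with 1098 in FC3. Klf2 likewise had 272 to 417 in CC, 457 to 594 in 4 FC libraries and 1060 in FC3. Atf3, a stress-induced repressor, rose by 0.70 (SE 0.13, edgeR FDR 9.24e-06) from 45 to 57 counts to 48 to 134, and FC7 lay within the controls. Csrnp1 and Nfil3 passed with 0.46 and 0.22 (edgeR FDR 8.78e-05 and 0.00281), and Nfil3 was not called without FC3 (0.20, edgeR FDR 0.0177).

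Npas4, which neuronal activity induces through calcium, was not called. It had 1066, 534, 683, 491 and 348 counts in CC and 822, 1031, 797, 845 and 819 in FC (log2 fold change 0.53, SE 0.17, edgeR FDR 0.0396). CC3 was the highest of all 10 libraries, and without it the log2 fold change was 0.76 (edgeR FDR 9.09e-09).

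**Figure D2:**
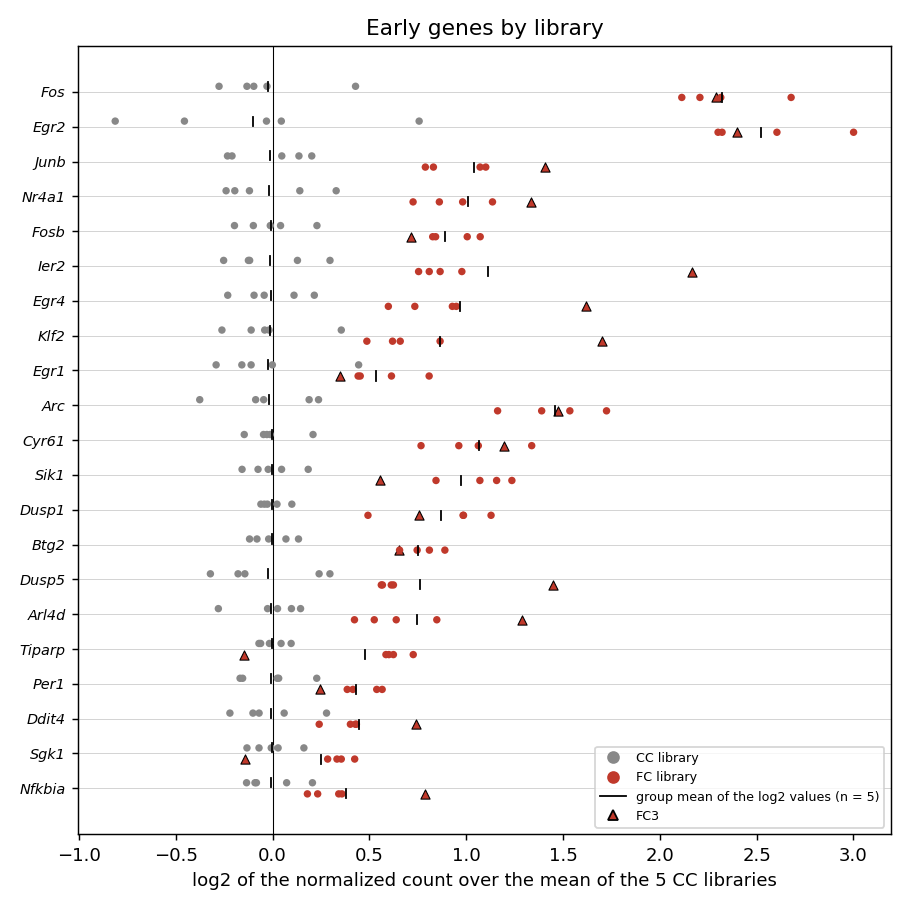
UQ-normalized counts of 21 early genes in each CC (grey) and FC (red) library, as the log2 of the count over the mean of the 5 CC libraries, with the mean of each group's log2 values as a bar and FC3 as a triangle. Fos, Egr2 and Arc lie farthest to the right, and FC3 is far to the right of the other FC libraries for Ier2, Klf2, Egr4, Dusp5 and Arl4d and to the left of them for Tiparp and Sgk1.

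The activity-induced effectors gave 12 higher, 1 lower and 21 not called among 34 tested (background 1.32% higher, 0.922% lower). Their median log2 fold change was 0.11 (all genes -0.014). With UQ alone 4 were called higher and with the quasi-likelihood test 11. These genes act at the synapse, in signalling or in the control of growth.

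Arc, whose protein drives the removal of AMPA receptors from the synapse, had 5081, 3321, 4175, 4057 and 4913 counts in CC and 11974, 14248, 9647, 12495 and 11296 in FC (2.79-fold, log2 fold change 1.48, SE 0.12, edgeR FDR 6.46e-32). Sik1, a kinase that CREB induces and that restrains CREB coactivators, had 517, 432, 448, 408 and 470 in CC and 669, 1072, 817, 956 and 1015 in FC (1.05, SE 0.08, edgeR FDR 7.78e-34). Cyr61, a secreted protein of the extracellular matrix, had 169, 165, 197, 167 and 154 in CC and 390, 431, 290, 332 and 356 in FC (1.06, SE 0.08, edgeR FDR 3.64e-33). In none of the 3 genes did a library of one group reach the other.

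Tiparp and Sgk1 show the effect of FC3. Tiparp, a member of the PARP family induced by dioxin, ran from 655 to 735 counts over the controls. It had 1032 to 1138 in 4 FC libraries and 621 in FC3 (log2 fold change 0.59, SE 0.05, edgeR FDR 6.71e-34). Sgk1, a kinase induced by glucocorticoids and by activity, had 2654 to 3254 in CC, 3543 to 3903 in 4 FC libraries and 2633 in FC3 (0.32, SE 0.05, edgeR FDR 2.32e-08). Both stayed called in each of the 10 models that left out 1 library, the one without FC3 included.

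Among the small GTPases of the ARF family, Arl4d rose by 0.66 (SE 0.06, edgeR FDR 4.29e-23) and Arl5b by 0.30 (SE 0.04, edgeR FDR 2.33e-10). Coq10b, of coenzyme Q metabolism, rose from 626 ± 36.7 to 747 ± 9.92 counts (0.24, SE 0.05, edgeR FDR 0.000141). Pim1 was the only effector called lower, from 89 to 100 counts to 48 to 80 (-0.47, SE 0.12, edgeR FDR 0.00292), and neither the quasi-likelihood test (edgeR FDR 0.0632) nor the model without FC3 called it. Bdnf, the neurotrophin whose transcription follows activity, was not called (0.11, SE 0.04, edgeR FDR 0.156). It had 2278, 2293, 2362, 2086 and 2625 counts in CC and 1473, 2813, 2552, 2687 and 2568 in FC, and without FC3 it was called (0.19, edgeR FDR 0.000478).

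Sequences before the start sites of these genes were read from RefSeq and are shown to let the known control elements be seen. The start-proximal 250 bases of the Fos and Btg2 promoters were found at chr12:86814590-86814839 (plus strand) and chr1:135975733-135975982 (minus strand) of mm9, and are written 5′ to 3′ with a motif searched for in capitals.
Fos: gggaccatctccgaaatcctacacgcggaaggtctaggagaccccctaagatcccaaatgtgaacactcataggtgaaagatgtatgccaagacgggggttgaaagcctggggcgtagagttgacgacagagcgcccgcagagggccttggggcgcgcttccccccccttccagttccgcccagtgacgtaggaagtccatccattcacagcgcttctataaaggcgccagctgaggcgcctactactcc
Btg2: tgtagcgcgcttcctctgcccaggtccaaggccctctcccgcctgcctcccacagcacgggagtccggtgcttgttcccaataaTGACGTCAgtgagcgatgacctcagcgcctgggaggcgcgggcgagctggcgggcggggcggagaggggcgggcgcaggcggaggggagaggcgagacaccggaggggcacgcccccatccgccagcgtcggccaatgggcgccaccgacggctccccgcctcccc

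Both strands were searched for the cyclic AMP response element (CRE, TGACGTCA), the CArG box that SRF binds, the AP-1 site (TGANTCA) and the EGR site (GCGTGGGCG), none of which contains another. The Fos window held none of the 4 in these exact letters, which says nothing of the factors, and the CRE in the Btg2 window lay 166 bases before the start. Of the 11385 tested genes with a promoter in the table, 3.35% held a CRE in 250 bases before to 50 after a start, 1.70% a CArG box, 6.35% an AP-1 site and 1.34% an EGR site. A promoter was at hand for 65.4% of the genes called higher and 54.2% of those called lower, under the 80% needed, so a comparison of shares between these groups is void. Of the called genes with a promoter, 10 of 155 higher and 7 of 90 lower ones held a CRE. It was thus found in both directions, and these counts are not compared. The most stable set had 56 genes called higher outside the choroid plexus list, 41 of them with a promoter. The matches in these 41 were 6 genes with a CRE and 2 with a CArG box. The following 30-base stretches show them with the motif in capitals.
Btg2: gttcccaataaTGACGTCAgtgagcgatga
Dusp1: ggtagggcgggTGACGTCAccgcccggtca
Errfi1: gctgcgggcgtTGACGTCAcgttgtcgctc
Arl4d: gccgcgtcgtgTGACGTCAcgagagggttt
Arl5b: caggcgcccgcTGACGTCAgcgcgccgacg
Clk4: cccgccgtcccTGACGTCAcagacccctcg
Egr2, upstream site: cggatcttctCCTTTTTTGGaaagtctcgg
Egr2, downstream site: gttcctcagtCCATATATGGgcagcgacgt
Dusp5: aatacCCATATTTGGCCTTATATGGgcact

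On mm9 the Dusp1 stretch is at chr17:26645542-26645571 on the minus strand, and that of Arl4d at chr11:101526818-101526847 on the plus strand. The Egr2 sites are at chr10:67000232-67000261 and chr10:67000535-67000564, on the plus strand, each 72 bases before a start that RefSeq gives the gene. Dusp5 had a pair of CArG boxes end to end (chr19:53603548-53603577, plus strand). A match is a description of the letters and not a bound site.

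Of 18 feedback regulators of ERK signalling tested, 5 were higher, 1 lower and 12 not called (background 1.32% higher, 0.922% lower). The median was 0.01 (all genes -0.014). With UQ alone 1 was called and the median was -0.034. Dusp1, a phosphatase that inactivates MAP kinases, had 715, 655, 678, 648 and 640 counts in CC and 1128, 1459, 939, 1322 and 1320 in FC (1.87-fold, log2 fold change 0.90, SE 0.09, edgeR FDR 2.89e-19). The groups did not overlap.

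Dusp5, the phosphatase of nuclear ERK, rose by 0.65 (SE 0.09, edgeR FDR 9.97e-10), with 807 to 1238 counts in CC, 1488 to 1554 in 4 FC libraries and 2748 in FC3. Dusp6, its cytoplasmic relative, rose by 0.29 (SE 0.06, edgeR FDR 0.000526), and FC3, with 2446 counts, lay below the controls. Trib1, a pseudokinase that directs proteins to degradation, rose from 513 ± 47.6 to 668 ± 66.8 counts (0.38, SE 0.07, edgeR FDR 1.02e-05). Errfi1, an inhibitor of the EGF receptor, rose by 0.30 (SE 0.04, edgeR FDR 1.34e-10), and CC8 lay within the FC range. Spred2, which restrains RAF, was called lower by 0.14 (SE 0.04, edgeR FDR 0.00809), and it was not in the quasi-likelihood test (edgeR FDR 0.0352).

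In the list for MAP kinase cascades 4 of 49 genes were higher and 1 lower (median -0.019, background 1.32% and 0.922%). In the quasi-likelihood test 1 was called and with UQ alone 0. With 1 library left out the number higher was 1 (without FC5) to 5 (without CC8), and it was 2 without CC3, CC5, CC7, FC3 or FC7. Map3k2, a kinase at the head of the ERK5 and JNK cascades, rose by 0.22 (SE 0.04, edgeR FDR 2.22e-05). Counts ran from 1178 to 1443 over the controls and from 1506 to 1678 over 4 FC libraries, with 1034 in FC3. Map3k14, Map2k3 and Mknk2 passed with 0.38, 0.19 and 0.19 (edgeR FDR 0.00126, 0.00654 and 0.00679), and the last 2 were not called without FC3 (edgeR FDR 0.0225 and 0.0182). Mapk11, the beta isoform of p38, was called lower (-0.16, SE 0.04, edgeR FDR 0.00251), with 1908 to 2039 counts in CC, 1577 to 1806 in 4 FC libraries and 3392 in FC3, and with UQ alone its direction was the opposite (0.042, edgeR FDR 0.98).

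The antiproliferative BTG and TOB family had 3 members higher of 5 tested and none lower (median 0.32, background 1.32% and 0.922%). With UQ alone 1 was called. These proteins bind the deadenylase complex and so affect mRNA decay. Btg2 had 878, 820, 934, 842 and 977 counts in CC and 1400, 1650, 1494, 1561 and 1403 in FC, a 1.71-fold rise with no overlap (log2 fold change 0.77, SE 0.05, edgeR FDR 1.54e-58). Tob2 rose by 0.49 (SE 0.06, edgeR FDR 6.84e-15) and Tob1 by 0.32 (SE 0.05, edgeR FDR 9.75e-08). For Tob2 the FC library nearest the controls was FC3 with 1211 counts, within the CC range of 960 to 1262, and for Tob1 FC3 had 952 against 1431 to 1595 in CC and 1826 to 2292 in the other FC libraries.

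Of 17 genes of the Gadd45 family and DNA methylation, 2 were higher and none lower (background 1.32% and 0.922%). Gadd45b and Gadd45g, stress sensors linked to DNA demethylation, rose by 0.48 (SE 0.09, edgeR FDR 5.05e-06) and 0.36 (SE 0.06, edgeR FDR 9.75e-08). In Gadd45g the counts were 558 to 736 in CC, 737 to 807 in 4 FC libraries and 1828 in FC3, so that FC6 exceeded the highest control by a single count.

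At the locus of the microRNAs miR-212 and miR-132, which CREB is known to induce, 2 genes of the plus strand rose. The long noncoding gene 1700016P03Rik (chromosome 11, 74986062 to 74991135, plus strand) had 146, 128, 131, 131 and 115 counts in CC and 567, 353, 269, 316 and 244 in FC (2.37-fold, log2 fold change 1.25, SE 0.09, edgeR FDR 1.19e-43). The Mir132 gene lies inside it on the same strand (74987167 to 74987267), outside its annotated exons, and had 34, 28, 31, 31 and 35 counts in CC and 84, 87, 68, 78 and 55 in FC (1.18, SE 0.15, edgeR FDR 1.32e-13). Neither gene had a library of one group inside the other. Ovca2, on the minus strand (74989444 to 74992337), overlaps the span of 1700016P03Rik and was called higher too (0.35, SE 0.06, edgeR FDR 2.25e-06). The libraries carry no strand, so reads where these 2 genes overlap cannot be told apart.

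Mir212 lies upstream in the same locus (74986890 to 74986980). It had 9 to 23 counts in CC and 22 to 26 in FC and was not called (0.49, SE 0.22, edgeR FDR 0.208). Libraries of polyA-selected, size-selected RNA do not hold mature microRNAs, so the counts say nothing of the mature forms, and reads of Mir132 and Mir212 cannot be told apart from unspliced RNA of the host. The mature 3p forms, from RefSeq, share a seed (bases 2 to 8, in capitals).
mmu-miR-132-3p: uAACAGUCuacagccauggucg
mmu-miR-212-3p: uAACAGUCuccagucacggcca

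Glucocorticoid-responsive genes gave 5 higher and none lower of 22 tested (median 0.06, background 1.32% and 0.922%), and 5 were called by the quasi-likelihood test but 0 with UQ alone (median 0.11). They were Sgk1 and Errfi1, described above, with Ddit4, Nfkbia and Per1. Several of these are also induced by neuronal activity, and Sgk1, Ddit4, Nfkbia and Per1 are among the positive controls the study took from earlier work.

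Per1, a repressor of the circadian clock, had 4570, 3505, 3988, 3473 and 3968 counts in CC and 4625, 5776, 5097, 5665 and 5201 in FC (1.39-fold, log2 fold change 0.47, SE 0.07, edgeR FDR 1.85e-08). The groups did not overlap, though FC3 and CC3 were close. Of 21 clock genes Per1 and Nfil3 were the 2 called, both higher (background 1.32% higher).

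Ddit4, an inhibitor of mTOR complex 1, had 2249, 2299, 2515, 2071 and 2927 counts in CC and 4031, 3245, 3257, 3188 and 2851 in FC (0.42, SE 0.05, edgeR FDR 1.04e-13), with FC8 below CC8. Nfkbia, the inhibitor that holds NF-kB in the cytoplasm, had 752 to 952 in CC and 935 to 1426 in FC (0.31, SE 0.05, edgeR FDR 1.76e-08) and was the only one called of 22 NF-kB subunits and inhibitors. FC8 overlapped the controls in both genes, and FC3 was the highest.

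In insulin, PI3K and FoxO signalling 2 of 35 genes were higher and 2 lower (background 1.32% and 0.922%). Besides Ddit4, Ppp1r3c, which targets a phosphatase to glycogen, was higher by 0.20 (SE 0.05, edgeR FDR 0.00651). Socs3, a suppressor of cytokine signalling, was lower by 0.50 (SE 0.12, edgeR FDR 0.00224), from a CC range of 75 to 96 counts to 55 to 75 in FC, and was not called without FC3.

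Cholesterol synthesis had 3 higher and none lower of 23 genes (background 1.32% and 0.922%), with a median of 0.03. The quasi-likelihood test called 1 and UQ alone 0, and with 1 library left out the number higher was 1 (without FC7) to 4. Cyp51, a sterol demethylase, rose by 0.18 (SE 0.03, edgeR FDR 2.02e-06), from 2724 to 3196 counts over the controls to 3275 to 4172 over the FC libraries, with no overlap.

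Of 20 splicing kinases and SR proteins, Clk4 and Clk1, kinases of SR proteins, rose by 0.19 (SE 0.04, edgeR FDR 6.42e-05) and 0.20 (SE 0.04, edgeR FDR 0.000299) and none fell. Clk4 had 3154 to 3360 counts in CC and 3452 to 3920 in FC, with no overlap. Dnajb5, a cochaperone, was the only one called of 28 heat shock genes (0.17, SE 0.04, edgeR FDR 0.00133). The background for these lists and the next was 1.32% higher and 0.922% lower. In CREB and cAMP signalling 1 gene of 35 was higher, Sik1, and the adenylyl cyclases Adcy8 and Adcy3 were called lower by 0.20 and 0.15 (edgeR FDR 0.000154 and 0.00101). An adenylyl cyclase gene outside this list was called higher. For Adcy3, FC3 had 839 counts while the rest of FC had 2389 to 2656, and the gene was not called without FC3 (edgeR FDR 0.0549).

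Receptor and channel genes had few calls (background 1.32% higher, 0.922% lower). None of 22 glutamate receptor genes and none of 15 GABA receptor genes was called in either direction, in the likelihood ratio test or in the quasi-likelihood test. In lists of this size, no call is near that background. Without CC8, 2 genes of each of these lists were called lower. The median log2 fold change was -0.03 for both lists. Among 45 potassium channel genes 1 was called lower, Kcnc4 (-0.17, SE 0.04, edgeR FDR 0.000544), which is also near that background. None of 42 nuclear genes of oxidative phosphorylation was called, and their median was -0.00071 with RUVs and 0.26 with UQ alone, and FC3 had a mean log2 deviation of 0.99 and the other libraries -0.17 to 0.03. The 80 ribosomal protein genes were alike, with no call and medians of 0.012 and 0.34. For lists of these sizes no call is again near the background. Of 15 genes of the mitochondrial genome mt-Nd2, a subunit of complex I, was called lower (-0.16, SE 0.04, edgeR FDR 0.000526), with 53311 counts in FC3, 173700 to 200303 in the rest of FC and 174304 to 192204 in CC, and it was not called without FC3 (-0.11, edgeR FDR 0.0158). The number lower was 0 without CC6 too and 4 without FC8.

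**Figure D3:**
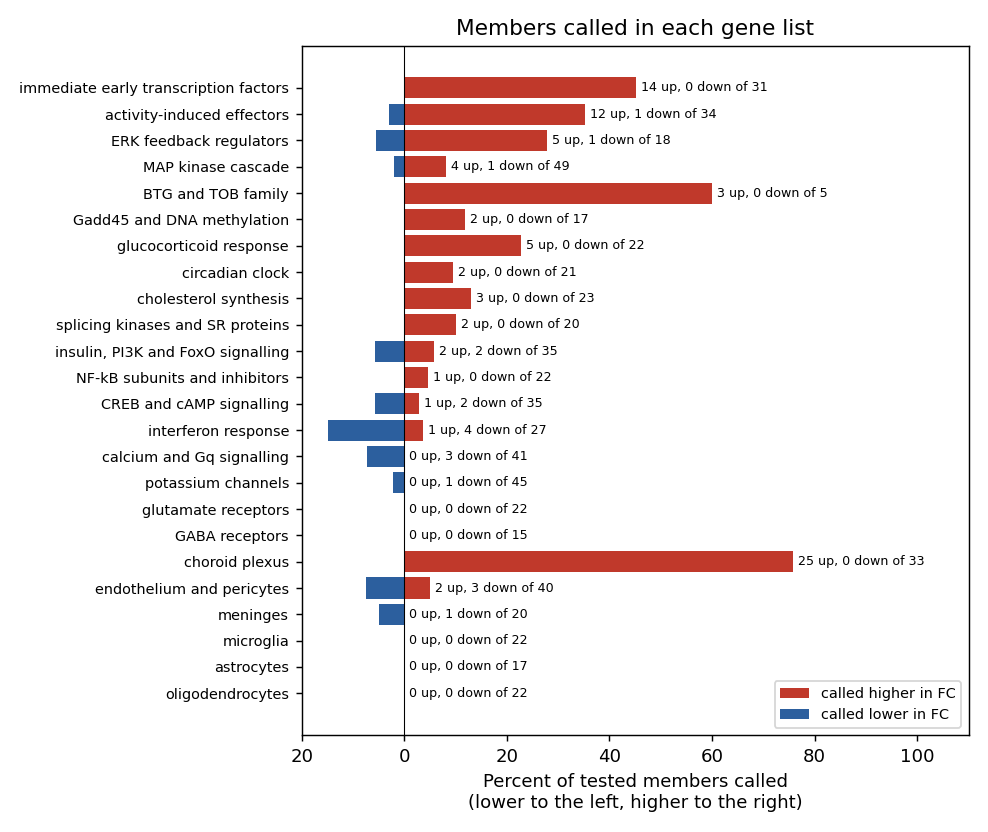
Percent of the tested members of 24 gene lists called higher (right, red) or lower (left, blue) in FC, with the counts beside each bar. The choroid plexus (25 of 33), the BTG and TOB family (3 of 5) and the immediate early transcription factors (14 of 31) have the largest shares called higher, and the interferon response (4 of 27) has the largest share called lower.

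Fewer of the falls were stable. The 5 in the most stable set were Sox18, Camk2d, Necab1, Tmem44 and 1 predicted gene. Sox18, a transcription factor of blood and lymph vessels, had 585, 594, 628, 607 and 619 counts in CC and 408, 436, 345, 352 and 347 in FC (0.599-fold, log2 fold change -0.74, SE 0.07, edgeR FDR 3.24e-23). The groups did not overlap, FC3 included. Sox18 was called with UQ alone as well (edgeR FDR 0.00888).

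The list of endothelium and pericytes, which holds Sox18, had 2 higher and 3 lower of 40 (median -0.10, background 1.32% and 0.922%). Edn1, the vasoconstrictor endothelin, was lower by 0.67 (SE 0.12, edgeR FDR 1.13e-05), with 93, 156, 114, 143 and 59 counts in CC and 73, 68, 77, 74 and 55 in FC, and CC8 lay among the FC libraries. Tie1, an endothelial receptor, was lower by 0.24 (SE 0.05, edgeR FDR 0.000213). Apold1, an early gene of endothelial cells, rose from 162 ± 28.4 to 298 ± 48.7 counts (0.85, SE 0.10, edgeR FDR 9.24e-14), and Adamts1, a secreted protease, by 0.28 (SE 0.06, edgeR FDR 0.000237), with 448 counts in FC3 while the other FC libraries had 1268 to 1498. Fewer cells of a type and less RNA per cell cannot be told apart in bulk tissue.

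The interferon response had 4 lower and 1 higher of 27 genes (background 0.922% lower, 1.32% higher), and its median of -0.19 was below that of all genes. Rsad2, an antiviral enzyme, had 86, 96, 86, 90 and 69 counts in CC and 58, 54, 60, 50 and 56 in FC (-0.64, SE 0.13, edgeR FDR 4.72e-05), and the groups did not overlap. Cxcl10, a chemokine, had 10 to 28 in CC and 4 to 20 in FC (-1.37, SE 0.29, edgeR FDR 6.42e-05). Gbp3, a GTPase, was lower by 0.38 (SE 0.09, edgeR FDR 0.000825) and Isg15, a ubiquitin-like protein, by 0.51 (SE 0.13, edgeR FDR 0.00369), though Isg15 had 191 counts in FC3, above every control, and was not called without it (edgeR FDR 0.0173). Irf9, a subunit of the interferon-stimulated transcription complex, rose by 0.27 (SE 0.06, edgeR FDR 0.000315). The list's mean log2 deviation was 0.49 in CC5 and -0.11 to 0.14 in the other controls, and the number lower was 2 without CC5 and 1 without FC5. Neither the quasi-likelihood test nor UQ alone called any of the 27. Markers of meninges and blood had high scores in CC5 too, with mean log2 deviations of 0.68 and 0.79 there, 0.61 and 1.00 in FC3 (interferon 0.24), -0.82 and -0.45 in FC7 (interferon -0.27) and -0.44 and -0.37 in FC8 (interferon -0.23). None of the 20 meningeal and 5 blood markers tested was at 0 in any library, the summed blood count was 2018 to 5490 in CC and 2274 to 7955 in FC, and the part of these markers in the interferon genes was not tested.

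Several of the genes named as falls had a low value in CC8. Camk2d, the delta isoform of calcium/calmodulin-dependent kinase II, had 2715, 3379, 2465, 2429 and 1308 counts in CC and 1129, 1896, 1810, 1676 and 2092 in FC (-0.37, SE 0.05, edgeR FDR 3.78e-09). CC8 lay below 4 of the FC libraries, and the other controls lay above all 5. Necab1, a neuronal calcium-binding protein, had 3163, 2494, 2407, 2634 and 1807 in CC and 238, 2066, 2043, 2227 and 2487 in FC (-0.37, SE 0.04, edgeR FDR 1.20e-13), where CC8 and FC3 were the lowest of their groups.

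Vwc2l, a secreted neural protein, had 536 to 618 counts in 4 controls, 171 in CC8 and 147 to 383 in FC (-0.46, SE 0.09, edgeR FDR 5.98e-05). Rxfp1, the relaxin receptor, had 180 to 269 in 4 controls, 73 in CC8 and 17 to 164 in FC (-0.49, SE 0.11, edgeR FDR 0.000411). Ankrd56 and Plch1, a phospholipase C, were lower by 0.41 and 0.36 (edgeR FDR 8.19e-05 and 9.37e-05), and CC8 was their lowest control too. Of the 166 genes called lower, CC8 was the lowest control for 60 (36.1%) and FC3 the lowest FC library for 124 (74.7%). Of the 237 called higher these numbers were 41 (17.3%) and 103 (43.5%), and over all genes tested the shares were 21.5% and 44.0%. With UQ alone none of Camk2d, Necab1, Vwc2l, Rxfp1, Ankrd56 and Plch1 was called (edgeR FDR 0.955 to 0.966).

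Markers of neocortex, of striatum and of thalamus and habenula were lowest in CC8 among the controls. For neocortex the mean log2 deviation was -0.45 in CC8, 0.04 to 0.19 in the other controls and -0.25 to 0.13 in FC. The summed count of its 11 markers was 9348 to 13280 in CC and 8520 to 11790 in FC, and none was at 0 in any library. For striatum the deviation in CC8 was -0.23, and for thalamus and habenula -0.27. None of the 11 neocortical markers was called, and 4 were called lower when CC8 was left out. That model also called lower 4 markers of pyramidal cells, 3 of striatum and 1 of thalamus and habenula, among 324 genes in all. The part of these markers in the falls was not tested.

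Hes5, a target of Notch signalling in glia and progenitors, had 234, 266, 305, 268 and 258 counts in CC and 596, 211, 151, 177 and 206 in FC (-0.43, SE 0.08, edgeR FDR 8.40e-06). All FC libraries but FC3 lay below the controls. With UQ alone the log2 fold change was 0.012 (edgeR FDR 0.998). Calcium and Gq signalling as a list had none higher and 3 lower of 41 genes (median -0.012, background 1.32% and 0.922%). The 3 were Camk2d and the receptors Chrm3 (-0.23, edgeR FDR 0.000528) and Oxtr (-0.24, edgeR FDR 0.00213). Chrm3 had 252 counts in FC3 and was not called without it (-0.12, edgeR FDR 0.0673). Gpr6, a striatal receptor, fell without overlap (53.6 ± 2.79 to 33.8 ± 4.82 counts, -0.72, SE 0.16, edgeR FDR 0.000278).

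**Figure D4:**
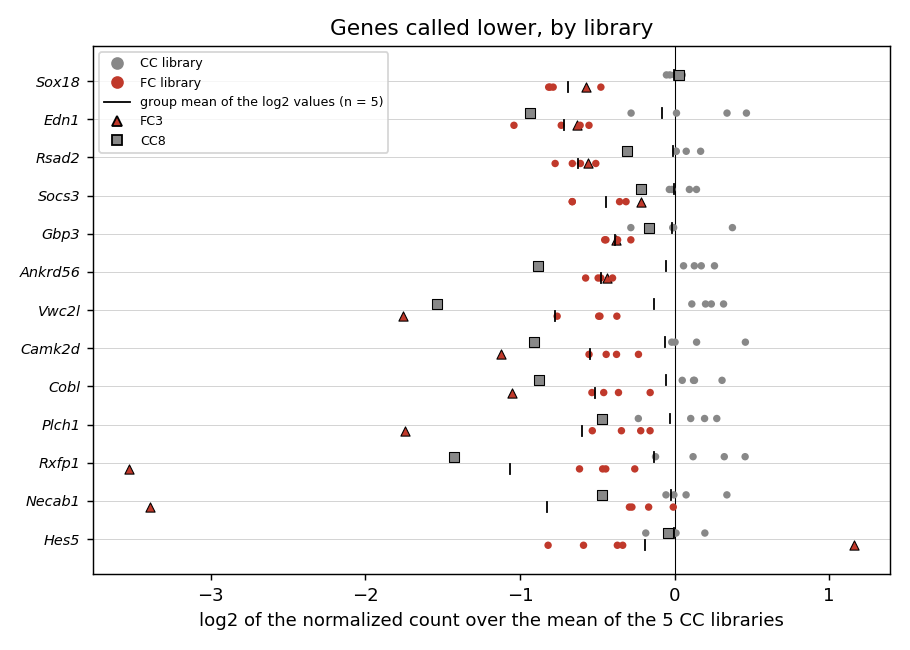
UQ-normalized counts of 13 genes called lower, as the log2 of the count over the mean of the 5 CC libraries, with CC in grey, FC in red, the group mean as a bar, FC3 as a triangle and CC8 as a square. Sox18 and Rsad2 separate the groups, CC8 lies to the left of the other controls for Vwc2l, Rxfp1, Camk2d, Cobl and Ankrd56, and FC3 lies farthest to the left for Rxfp1 and Necab1 and to the right for Hes5.

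The largest fold changes belonged to genes of the choroid plexus, the epithelium that secretes cerebrospinal fluid and lines the ventricle beside the hippocampus. Of 33 tested, 25 were higher and none lower (median 1.11, background 1.32% and 0.922%), and 5 were higher when FC5 and FC8 were left out. Ttr, the carrier of thyroid hormone in cerebrospinal fluid, had 547, 1048, 1120, 1153 and 803 counts in CC and 6174, 46548, 2332, 4958 and 19660 in FC (11.3-fold, log2 fold change 3.49, SE 0.34, edgeR FDR 4.51e-17). FC5 and FC8 were 10 or more times the controls, and the other 3 FC libraries were also above every control.

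Other members followed the same libraries. Slc4a5, a bicarbonate transporter, had 11 to 21 counts in CC and 24, 443, 30, 49 and 224 in FC. Aqp1, the water channel of this epithelium, had 28 to 37 in CC and 50, 399, 51, 48 and 192 in FC. For Otx2, Mfrp, Folr1, Kcnj13 and Cldn2 as well, FC5 was the highest and FC8 the next. Prlr, the prolactin receptor, reached 434 and 350 in FC5 and FC8 and was 77 to 152 in the other FC libraries, against 88 to 164 in CC.

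The summed count of the 33 genes was 16944 to 19370 in CC and 22810, 95691, 21586, 23686 and 50001 in FC, and none of them was at 0 in any library. Abca4, a lipid transporter called higher by 1.01 (SE 0.15, edgeR FDR 1.71e-08), had 528 counts in FC5 and 265 in FC8 against 152 to 186 in the other FC libraries, and without these 2 libraries it was not called (0.41, edgeR FDR 0.0501). Of the markers of ependyma, which also lines the ventricles, 1 of 13 was called (Rsph1, 0.36, SE 0.09, edgeR FDR 0.00166). The part of the amount of choroid plexus in the other results was not tested, and without FC5 and FC8 the early transcription factors gave 9 higher and none lower and the effectors 11 higher.

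**Figure D5:**
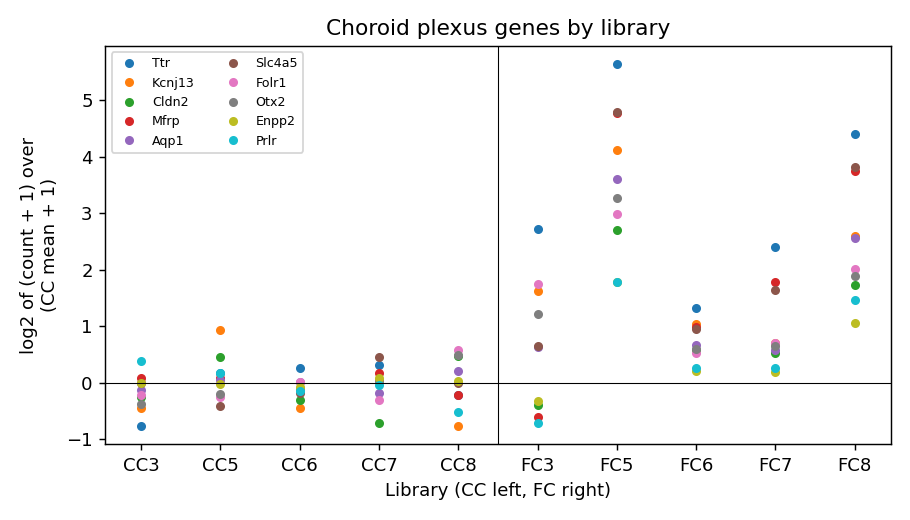
UQ-normalized counts of 10 choroid plexus genes in each library, as the log2 of the count plus 1 over the CC mean plus 1, with CC on the left and FC on the right. All 10 genes are highest in FC5 and next highest in FC8.

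The remaining cell types showed few calls (background 1.32% higher, 0.922% lower). None of 22 microglial, 17 astrocyte, 22 oligodendrocyte, 19 interneuron, 12 dentate granule cell or 5 blood genes was called. For lists of this size that is near the background. Pcp4, of CA2 pyramidal cells, was higher (0.41, SE 0.10, edgeR FDR 0.00162) with a CC range of 198 to 297 counts, 980 in FC3 and 226 to 492 in the rest of FC. Among 20 meningeal genes Col1a1 was called lower (-0.34, SE 0.09, edgeR FDR 0.00576), and the list's median was -0.19 (UQ alone -0.020). With 1 library left out the number lower was 6 without FC6, 4 without CC8, 2 without CC3 and 0 without CC5, CC6, CC7, FC7 or FC8. The summed meningeal count ran from 25037 to 56192 in CC and from 17938 to 114806 in FC.

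Several genes that belong to none of the lists were as stable as the early genes. Tm6sf2, a protein of lipid export, rose from 168, 143, 158, 186 and 218 counts to 397, 279, 289, 324 and 309 (0.84, SE 0.08, edgeR FDR 6.33e-26). Tnfrsf25, a death receptor, rose by 0.68 (SE 0.07, edgeR FDR 2.53e-17), with CC8 above FC8. Arid5a, an RNA-binding protein that stabilizes inflammatory transcripts, rose from 523 ± 14.1 to 784 ± 143 counts (0.50, SE 0.06, edgeR FDR 1.72e-16), and the groups did not overlap.

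Others, named after their values were seen, were smaller in fold. Mcl1, a survival factor of the BCL2 family, had 3277 to 3509 counts in CC and 3867 to 5489 in FC (0.26, SE 0.03, edgeR FDR 1.25e-11). Stac3, an adaptor of calcium channels, rose from 139 ± 12.2 to 215 ± 15.2 counts (0.66, SE 0.09, edgeR FDR 1.39e-09). Rbm15, of the RNA methylation complex, Sertad1, a cell cycle cofactor, and Pim3, a kinase, rose by 0.48, 0.46 and 0.25 (edgeR FDR 1.50e-09, 3.11e-08 and 1.62e-06). None of these 5 genes had overlapping groups. Of the 17 positive controls that the study took from earlier work for FC, 15 were called higher, Sox18 was called lower and Npas4 was not called.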

How the data were processed

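PolyA-selected hippocampal RNA was sequenced as 100-bp read pairs. The deposited values are raw read counts per Ensembl (release 65) gene, which the authors made with HTSeq 0.6.1 from unique, concordant GSNAP alignments to mm9. TruSeq libraries of this kind carry no strand, so overlapping antisense genes cannot be told apart. Genes passed the filter with over 10 reads in over 5 of 15 libraries (18008 of 37310). edgeR 4.0.16 in R 4.3.3 fitted all 15 libraries with UQ factors and 5 RUVs factors. Tests were likelihood ratio tests with a Benjamini-Hochberg FDR of 0.01. The RUVs factors were computed anew from differences between libraries of the same group. Their values per library came from the 625 negative control genes of the study (chosen by the authors on microarrays). The coefficient of variation common to all genes was 0.0451 with these factors and 0.203 with UQ alone. Each SE is that of the fitted coefficient, from the inverse of the information matrix of the edgeR model, put on the log2 scale. The fits were also run on counts simulated from the RUVs model itself, which cannot show how well that model suits these libraries. Alternatives were DESeq2 1.42.0, the quasi-likelihood test, other filters and scaling (TMM), more or fewer factors and left-out libraries.

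The genes, lists and tests were chosen with earlier results of these data known. Genes named are Arc, Fos, Dusp1 and the positive controls of the study, the 30 smallest p among the most stable calls, the 12 largest rises and 12 largest falls with a mean count of at least 50 and a quasi-likelihood FDR under 0.05 outside the choroid plexus, and 2 to 4 members of each list. Genes without a symbol of their own were counted and, except 1700016P03Rik, the host of Mir132, not named. Beyond the rule, these were named after their values were seen: Atf3, Csrnp1, Jun, Nr4a3, Arl5b, Coq10b, Pim1, Bdnf, Dusp6, Spred2, Mknk2, Isg15, Cobl, Adamts1, Mfrp, Aqp1, Slc4a5, Folr1, Otx2, Prlr, Mcl1, Stac3, Rbm15, Sertad1, Pim3, Tmem44 and Mir212. Ovca2 was named in the same way and is outside the counts of named genes below. List symbols that the annotation gives to more than 1 gene were taken at the gene with more reads. Promoter and microRNA sequences came from RefSeq tables (GRCm38.p6), and promoters were placed on mm9 by exact match. Some genes that the rule names are not reported here.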

Additional observations from a re-analysis of the deposited data

Results flagged for a closer look

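In each group of 5 libraries of the called genes named here, the highest or lowest library was set apart when its gap to the next exceeded 0.71 of the group's range (Dixon's 95% value). Chance alone sets apart about 1 in 20 groups. Of 206 groups 38 had such a library, and in 30 of them it was FC3.

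FC3 was the low library 14 times, with normalized counts of 2633 for Sgk1, 621 for Tiparp, 238 for Necab1, 17 for Rxfp1, 1034 for Map3k2, 839 for Adcy3, 252 for Chrm3, 53311 for mt-Nd2, 5802 for Jun, 4319 for Nr4a3, 641 for Arl5b, 2682 for Spred2, 448 for Adamts1 and 455 for Spty2d1. It was the high library 16 times, with 1426 for Nfkbia, 1098 for Ier2, 3283 for Egr4, 1060 for Klf2, 596 for Hes5, 2748 for Dusp5, 3392 for Mapk11, 976 for Map2k3, 1828 for Gadd45g, 1062 for Gadd45b, 1123 for Nfil3, 3617 for Ppp1r3c, 4172 for Cyp51, 5489 for Mcl1, 592 for Rbm15 and 1076 for Sertad1.

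CC8 was the low library with 171 for Vwc2l, 126 for Ankrd56 and 2635 for Tmem44 and the high library with 7584 for Jun. FC5 was high with 117 for Kcnj13 and 299 for Otx2, both genes of the choroid plexus. CC6 was high with 3137 for Ppp1r3c, and FC6 was low with 1001 for Adcy8.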

How the results depend on the processing

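Precision was limited by 5 libraries a group. The number of genes called higher (237) and lower (166) was 32 and 2 with UQ alone, 82 and 16 in the quasi-likelihood test, 119 and 45 in DESeq2, 98 and 24 with 1 RUVs factor, 135 and 41 with 3, and 131 and 33 with 3 factors in the CC and FC libraries only (30 and 2 there with UQ alone). Those lower were 81 with no filter and 91 with RUVg. Leaving out 1 library gave 147 to 300 higher and 80 to 324 lower. Without FC3 and RT3 the numbers were 320 and 126. Chosen after the data were seen, the model without FC5 and FC8 gave 101 and 91, and the quasi-likelihood test without FC3 gave 79 and 7. The cause was not tested.

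By correlation, same-numbered CC and FC libraries were not closer than others. Of 5 same-numbered pairs 1 had a correlation over 0.1 (range -0.493 to 0.350), as did 9 of 20 others. Against every control, FC3 had the opposite sign to FC6, FC7 and FC8 (for CC6, 0.525 against -0.493 to -0.398). The values thus followed FC3, and they cannot decide whether the libraries were paired. RT libraries were not part of this check. The study sequenced 1 library of each group per lane. The labels name no lane, so an effect of a shared lane was not tested. With the replicate block 255 genes were higher and 200 lower with RUVs, and 43 and 2 with UQ alone.

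The early transcription factors called higher were 8 with UQ alone, 9 in the quasi-likelihood test and 9 without FC5 and FC8. The effectors were 4 with UQ alone. The choroid plexus genes were 12, 15 and 5 under the same 3 settings and 15 to 28 with 1 library left out. Directions reversed for Hes5 (0.0115 with UQ alone, 0.0114 in the CC and FC libraries only) and Mapk11 (0.0420 and 0.0420). Of 2939 alternative values of the genes named, 614 kept the direction and lost the call and 5 gained it.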
